A study of Drosophila melanogaster with 64 samples.

Results

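The genes described here are the proteasome subunits of *Drosophila melanogaster*, taken as every gene whose FlyBase identifier maps to a symbol that starts with Rpn, Rpt and a digit, Prosalpha or Prosbeta. The rule found 48 of the 17752 genes in the count table. Of these, 32 are the constitutive subunits (7 of the 20S alpha ring, 7 of the 20S beta ring, 6 ATPases and 4 other subunits of the 19S base, and 8 of the 19S lid) and 16 are variant paralogs, genes known in *Drosophila* mostly for expression in testis. The 48 genes are spread over the genome, with 8 on chromosome arm 2L, 13 on 2R, 7 on 3L, 14 on 3R and 6 on X. The rule uses symbols and no measured value, though it was set with earlier results of these data known.

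All samples came from the LHM strain, a wild-type laboratory strain, and the females were 3 to 8 days old. RNA was sequenced from 5 tissues of the female reproductive tract (FRT) and from the fat body around it. The bursa, oviduct and seminal receptacle are primarily epithelial and muscular, and the spermathecae and parovaria are glandular. Each tissue was taken from unmated females and at 6 h and 24 h postmating, and the unmated whole female, which kept the ovaries but lacked the lower FRT, served as the outside reference. Unmated, 6 h and 24 h libraries numbered 4, 4 and 4 in bursa, 3, 2 and 3 in oviduct, 3, 4 and 3 in seminal receptacle, 4, 4 and 4 in spermathecae, 4, 3 and 4 in parovaria and 4, 3 and 2 in fat body, and there were 2 of the whole female. Each library held tissue pooled from many females, and the labels do not tie libraries to separate mating days, so p-values measure the spread between these libraries.

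The 26S proteasome degrades proteins tagged with ubiquitin. Its 20S core is a barrel of alpha subunit rings, which gate the entrance, around beta subunit rings, in which Prosbeta1, Prosbeta2 and Prosbeta5 carry the caspase-like, trypsin-like and chymotrypsin-like activities. The 19S cap has a base, whose Rpt ATPases unfold the substrate and pass it into the core, and a lid, in which Rpn11 removes the ubiquitin chain.

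The 64 libraries held 12177864 to 26860149 assigned reads each, with a median of 24545411.5, and the lowest total belonged to a 24 h seminal receptacle library. They were sequenced in 2 runs, with 26 libraries in run 1 and 38 in run 2. The 6 h oviduct, the 24 h fat body and the whole female were sequenced in run 2 alone, so for those groups run and condition cannot be told apart except within run 2. The tissue labels held against marker genes. The 10 fat body markers summed to 48857 to 106472 CPM (counts scaled to the library total) in the unmated fat body libraries, against 3198 to 45243 CPM in every FRT library, and the 12 muscle markers summed to 90.3 to 166 CPM in the fat body, 856 to 2617 CPM in the glandular tissues and 11282 to 37227 CPM in the epithelial tissues. Fat body transcripts were therefore present in every FRT library. The 15 of 17 testis markers that were matched reached at most 26.3 CPM, in 1 unmated bursa library, and the 10 male accessory gland markers at most 10.3 CPM, in a 6 h bursa library. In bulk tissue, fewer cells of a type and less RNA per cell cannot be told apart, and this holds for every level given here.

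All 32 constitutive subunits were expressed in every tissue, with more than 2 CPM in each of the 64 libraries. The lowest single value was 4.79 CPM, from 118 reads. Levels of different genes were compared as CPM per kilobase of exon, with CPM scaled by the trimmed mean of M-values (TMM) over all libraries. In the unmated FRT tissues the median subunit stood at 39.7 CPM per kb, against a median of 6.02 for all 8388 expressed genes, and all 32 were above that median. The quartiles of the 32 were 29.8 and 53.5 CPM per kb, 1.80-fold apart. The middle of the 32 thus lay within a narrow range, and the extremes were single subunits.

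The 20S core stood above the 19S cap per kb. Medians by role were 56.7 CPM per kb for the alpha ring, 45.2 for the beta ring, 37.9 for the base ATPases, 35.0 for the lid and 25.8 for the other base subunits. Prosbeta5, the chymotrypsin-like subunit (2R:10819978-10821178, + strand of the Release 6 assembly), was the highest of the 32 at 95.4 CPM per kb. The alpha ring subunit Prosalpha7 followed at 59.8, then Prosbeta1 at 57.5 and Prosalpha2 at 57.1 CPM per kb. At the low end were Rpn2, a scaffold of the base (3R:29153524-29157255, + strand), at 15.1 CPM per kb, the ATPase Rpt5 at 17.6, the lid subunit Rpn3 at 21.7 and Rpn1, the other base scaffold, at 21.9. Prosbeta5 was thus 6.31-fold above Rpn2. With the longest transcript in place of all exons, 12 subunits changed rank, but Prosbeta5 stayed first and Rpn2 last.

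**Figure D1:**
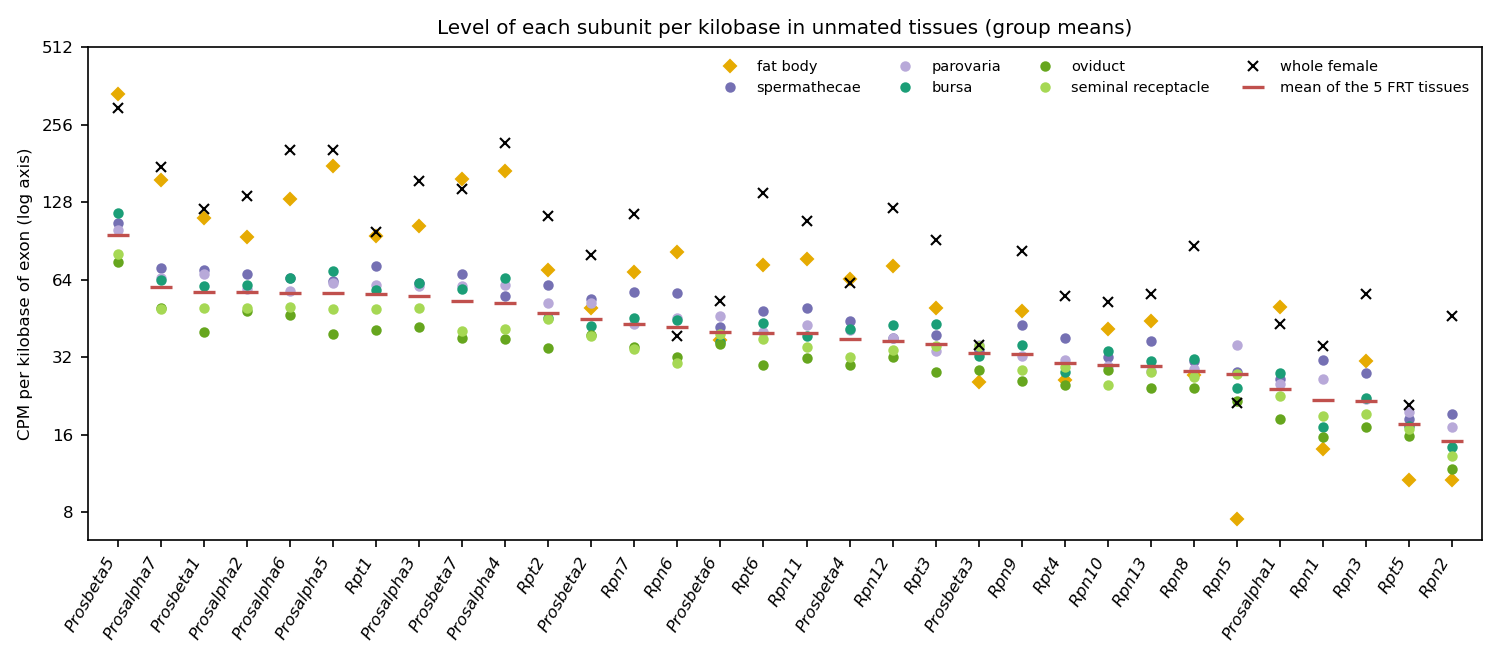
Mean level of each constitutive subunit in each unmated tissue and in the whole female (TMM-scaled CPM per kb of exon, log axis), with 1 point per tissue, subunits ordered by the mean of the 5 FRT tissues, which the red lines mark. Prosbeta5 is the highest of the 32 in each tissue and in the whole female, at 335 CPM per kb in fat body, 116 in bursa and 74.7 in oviduct, and Rpn2 and Rpt5 are among the lowest in each FRT tissue.

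Per kb, Prosbeta5 averaged 335 CPM in unmated fat body, 116 in bursa, 106 in spermathecae, 99.7 in parovaria, 80.5 in seminal receptacle, 74.7 in oviduct and 298 in the whole female. The fold range over the 18 tissue and time groups was 8.46 for Prosbeta5, 7.87 for Prosalpha5 and 7.26 for Prosalpha4, but 1.50 for Prosbeta2 and 1.59 for Prosbeta6. The subunits of the core thus did not vary alike. Of the 32 subunits, 24 had their highest mean in the 24 h fat body and 3 in the unmated spermathecae, while 14 had their lowest in the unmated oviduct and 10 in the 6 h oviduct. These ranges and ranks are TMM-scaled. Without TMM, the 32 summed to a mean of 1612 CPM in the 24 h fat body and 2131 in the unmated oviduct. The order of these 2 groups thus turned with scaling.

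The summed TMM-scaled level of the 32 subunits was highest among the unmated tissues in the fat body, at 3043 ± 433 CPM (SD, n = 4). The spermathecae followed at 2038 ± 160 (n = 4), then the parovaria at 1836 ± 111 (n = 4), the bursa at 1808 ± 150 (n = 4), the seminal receptacle at 1502 ± 215 (n = 3) and the oviduct at 1343 ± 176 (n = 3). The 2 whole female libraries held 3286 and 4923 CPM. The lowest fat body library, at 2647 CPM, lay above the highest of the spermathecae, at 2240 CPM. Every other pair of neighbours in this order overlapped, from spermathecae and parovaria (1851 to 2240 and 1700 to 1931 CPM) down to seminal receptacle and oviduct (1325 to 1740 and 1206 to 1541 CPM).

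The place of the fat body among the unmated tissues depended on scaling. As a plain share of each library's reads, the 32 subunits took 0.117 to 0.145% in unmated fat body, 0.187 to 0.263% in unmated oviduct and 0.958 to 1.05% in the whole female. The order within the FRT turned too. Plain means were 2418 CPM in bursa, 2206 in seminal receptacle, 2131 in oviduct, 2103 in spermathecae and 1528 in parovaria, against 1364 in fat body and 10061 in the whole female. The TMM factors, which correct for a few very abundant transcripts, were 0.32 to 0.56 in fat body libraries and 2.14 to 2.92 in the whole female.

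**Figure D2:**
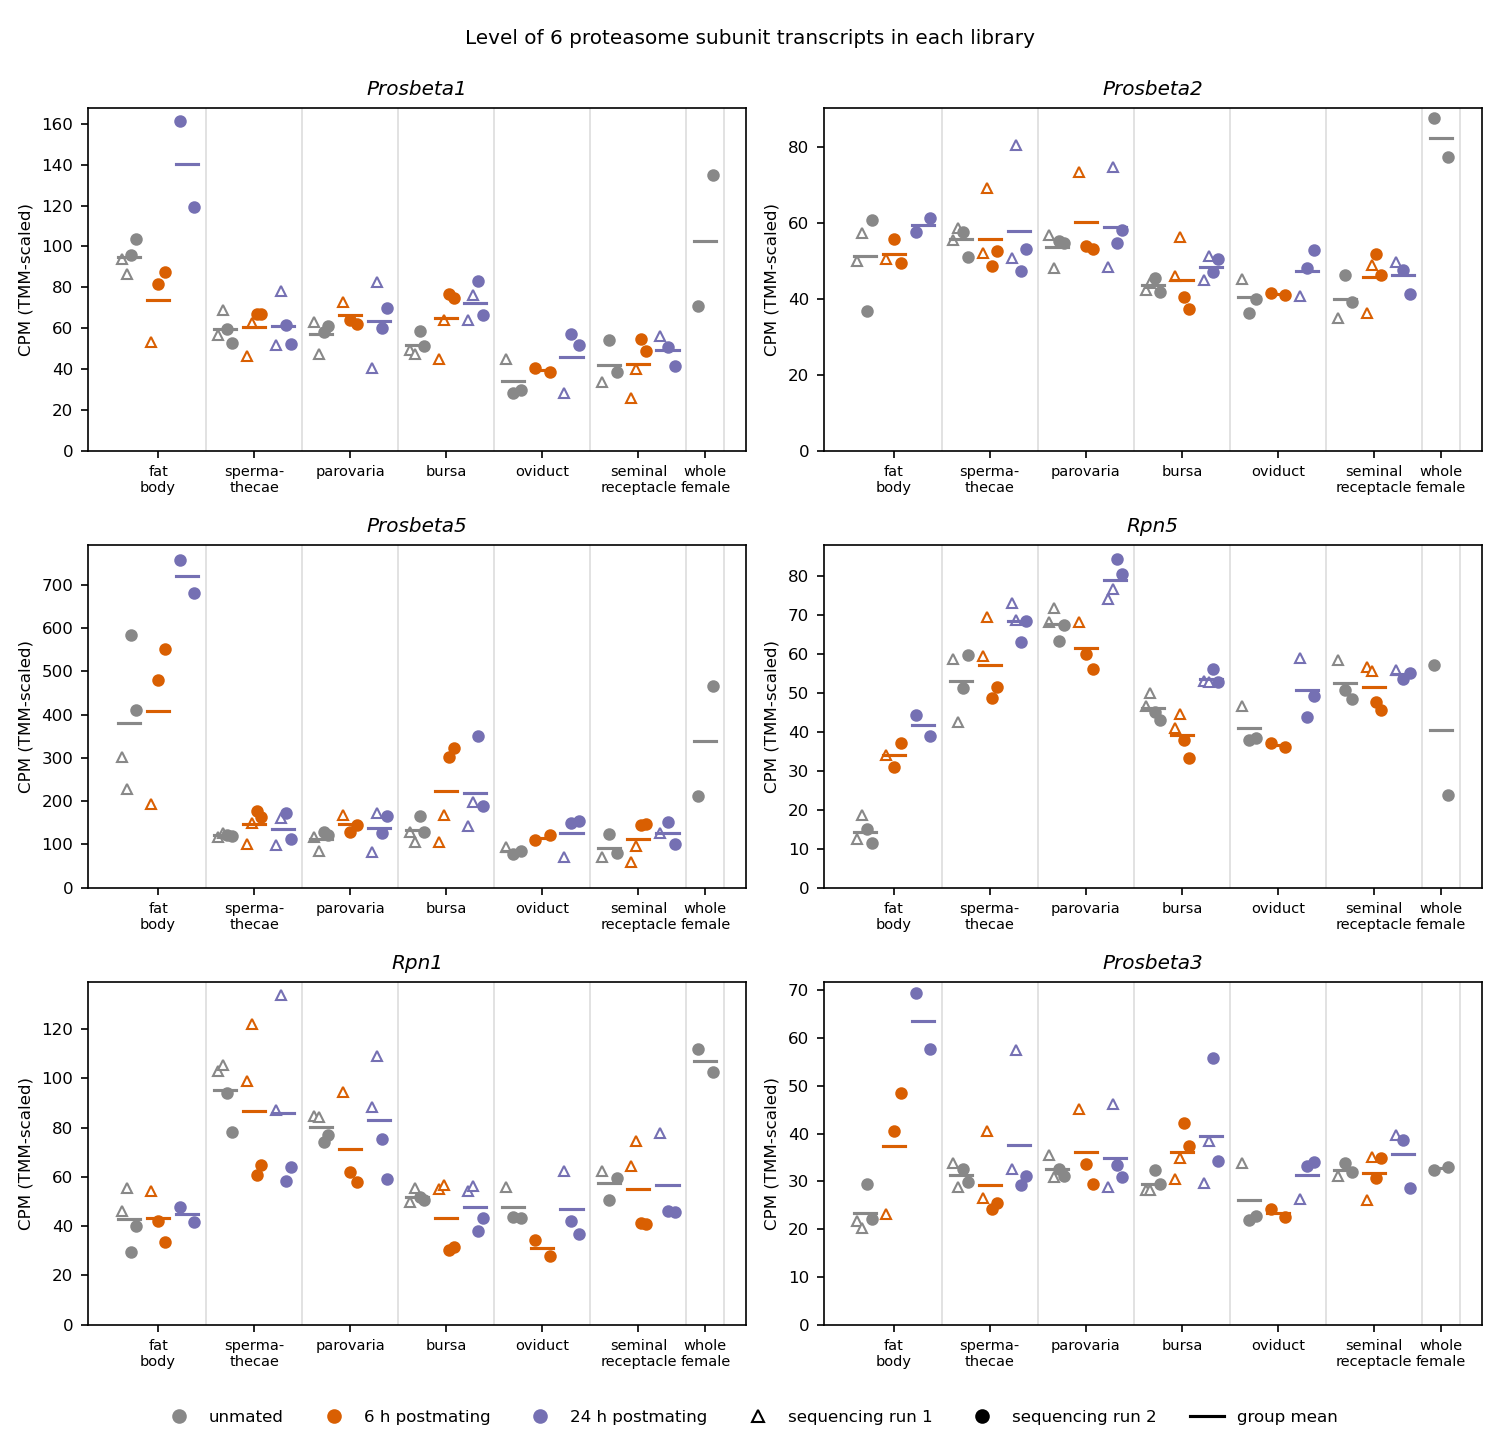
TMM-scaled CPM of 6 subunits in every library, by tissue and time (grey unmated, orange 6 h, purple 24 h; open triangles run 1, filled circles run 2; lines are group means). Rpn5 in fat body lies at 11.4 to 18.6 CPM in the 4 unmated libraries and at 30.9 to 44.4 CPM in the 5 postmating libraries, while Prosbeta5 spreads widely between runs.

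The variant paralogs were absent or near the limit of detection, with 1 exception. Prosalpha1R (2R:7830413-7831771, - strand) lies beside its constitutive counterpart Prosalpha1 (2R:7827303-7828678, - strand) and had nearly the same counts. Their reads were equal in 58 of the 64 libraries and differed by at most 2, with 48809 reads for Prosalpha1 and 48804 for Prosalpha1R over all libraries. Reads of the pair cannot be told apart here, so the level of each is uncertain. In unmated fat body Prosalpha1R was listed at 38.4, 33.0, 68.0 and 54.1 CPM, against 21.8 to 28.8 CPM in spermathecae, 21.4 to 27.0 in parovaria, 21.9 to 35.1 in bursa, 15.4 to 22.2 in oviduct and 16.7 to 28.4 in seminal receptacle.

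Of the other 15 variant paralogs, 4 had no read in any library (Prosbeta2R1, Prosbeta4R1, Prosbeta5R1 and Prosbeta5R2) and 11 had at least 1 read. A count of 0 allows up to 3 reads, which is 0.112 to 0.246 CPM at these depths. None of the 15 passed 2 CPM in any library. Rpt3R, a paralog of the base ATPase Rpt3 (3R:9754735-9756510, - strand), had the most reads, 231 in 22 libraries. The 2 whole female libraries held 43 and 45 of them, at up to 1.82 CPM, and 9 of the 12 spermathecae libraries held another 100. In spermathecae, Rpt3R had 0, 12, 10 and 11 reads in unmated libraries, 17, 25, 7 and 4 at 6 h and 9, 5, 0 and 0 at 24 h, so the times overlapped. Rpt6R, a paralog of the ATPase Rpt6 (3R:30582198-30583697, - strand), had 125 reads, 118 of them in 11 of the 12 bursa libraries. Its bursa counts were 9, 13, 8 and 7 in unmated libraries, 16, 14, 4 and 0 at 6 h and 11, 11, 9 and 16 at 24 h, with a maximum of 0.655 CPM. These reads thus lay mostly in 1 tissue, at a level at which no test was run. Prosalpha6T had 44 reads scattered over 18 libraries.

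The question of the time series was which transcripts change after mating. A gene was tested in a tissue if it passed 2 CPM in 2 or more libraries of any group, and was called at a Bonferroni-adjusted p of at most 0.01 in edgeR's quasi-likelihood test over all tested genes. No constitutive subunit was called in any of the 18 postmating comparisons. All 32 were tested in each. The shares of all tested genes called by this edgeR test were small too. In bursa, 1.15% of 7983 genes were called for 6 h over unmated, 0.125% for 24 h over unmated and 0.689% for 24 h over 6 h. In oviduct the shares were 0.0256%, 0% and 0.0128% of 7814 genes, in seminal receptacle 0.0246%, 0% and 0% of 8141, in spermathecae 0.289%, 0.0656% and 0.157% of 7624, in parovaria 0.0687%, 0.0137% and 0.0275% of 7277, and in fat body 0.0176%, 0% and 0% of 5677. At such Bonferroni shares, a count of 0 among 32 genes does not set the subunits apart from other genes. The paper reported more differentially expressed genes per tissue on average, by a Bonferroni rule with the same cutoff. DESeq2 also called more genes in bursa by this rule, as given below. The small shares thus belong to this edgeR test and do not show that few genes respond to mating. The cause of the gap from the paper was not tested. At a Benjamini-Hochberg (BH) adjusted p of at most 0.05 the shares were larger in bursa, at 25.4% of genes for 6 h over unmated, where 0 of 32 subunits passed, and 14.0% for 24 h over 6 h, where 1 passed.

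An unadjusted edgeR p under 0.05 was reached, for the same 3 contrasts in turn, by 5, 4 and 1 of the 32 subunits in bursa, beside 39.4%, 7.57% and 27.6% of all genes. In oviduct it was reached by 2, 0 and 1 (22.2%, 6.81% and 23.4%), in seminal receptacle by 0, 0 and 0 (11.8%, 2.94% and 8.34%), in spermathecae by 1, 2 and 0 (13.2%, 9.43% and 13.1%) and in parovaria by 0, 0 and 1 (10.3%, 6.90% and 12.8%). In fat body it was reached by 4, 18 and 21 (19.3%, 14.1% and 16.7%). DESeq2, with the same Bonferroni rule, called 1 subunit in fat body at 6 h and 1 at 24 h against unmated, beside 1.27% and 0.247% of genes. It called 0 in the other 16 comparisons. Over all genes, its calls in those 16 ran from 14 of 5677 to 668 of 7983. The fewest were in fat body at 24 h against 6 h and the most in bursa at 6 h. Bursa at 24 h against 6 h had 420 of 7983, and oviduct at 6 h 157 of 7814. The typical 95% interval of a single subunit's log2 fold change (log2FC) reached 0.38 to either side in bursa, 0.42 in spermathecae, 0.39 to 0.42 in parovaria, 0.51 to 0.54 in seminal receptacle, 0.51 to 0.58 in oviduct and 0.51 to 0.61 in fat body. Changes smaller than these could not have been seen gene by gene. The intervals are not adjusted for the number of genes, so larger changes could go uncalled too. In fat body, for example, edgeR did not call Rpn5 at 1.30 at 6 h or at 1.63 at 24 h.

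In the bursa, the subunits lay above unmated more often than genes in general, though none was called. At 6 h the median log2FC of the 32 was 0.30 with 27 positive, beside a median of -0.02 over all tested genes, and at 24 h it was 0.27 with 29 positive, beside -0.04. The core and the cap differed in size. The 20S median was 0.34 at 6 h and that of the 19S 0.09, with 0.44 and 0.20 at 24 h. All 7 alpha and all 7 beta subunits were positive at 6 h, with medians of 0.38 and 0.33, against 0.17 for the ATPases, 0.15 for the lid and -0.14 for the other base subunits.

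Prosalpha5, an alpha ring subunit (2R:17412767-17413769, + strand), had the largest 6 h log2FC in bursa. It stood at 54.6 and 81.8 CPM in the 6 h libraries of run 1 and 169 and 162 CPM in those of run 2, against 59.9 and 51.7 (run 1) and 80.8 and 69.0 CPM (run 2) in unmated bursa. The 2 high libraries were both from run 2, and the run 1 libraries overlapped unmated. The log2FC was 0.85 (SE 0.38, edgeR unadjusted p = 0.047, Bonferroni-adjusted p = 1). Prosbeta5 had the same split, with 106.4 and 168.4 CPM (run 1) and 301.1 and 322.2 CPM (run 2) at 6 h, against 129.7 and 105.3 CPM (run 1) and 165 and 129.7 CPM (run 2) in unmated bursa. Its log2FC was 0.77 (SE 0.37, edgeR unadjusted p = 0.061). Prosalpha4, another alpha subunit, had a log2FC of 0.84 (SE 0.29, edgeR unadjusted p = 0.013).

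The other catalytic subunits moved less in bursa. Prosbeta1 stood at 44.8, 64.1, 76.9 and 74.9 CPM at 6 h, against 49.2, 47.4, 58.7 and 51.3 CPM in unmated bursa, and its 24 h log2FC was 0.47 (SE 0.19, edgeR unadjusted p = 0.031). Prosbeta2 stood at 45.9, 56.4, 40.5 and 37.3 CPM at 6 h, against 42.4, 44.2, 45.6 and 41.9 CPM in unmated bursa, and the groups overlapped. Rpn1, the base scaffold that docks ubiquitin receptors (3L:19915051-19918160, + strand), had the lowest 6 h value. It was at 55.0 and 56.6 CPM (run 1) and 30.1 and 31.4 CPM (run 2) at 6 h, against 49.9, 55.5, 51.8 and 50.8 CPM in unmated bursa, so that only the run 2 libraries were below unmated. Its log2FC was -0.28 (SE 0.21, edgeR unadjusted p = 0.21).

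The 1 subunit that passed BH in bursa was the lid subunit Rpn5 (3R:5789493-5791569, + strand), which was higher at 24 h than at 6 h, with 52.9, 52.8, 56.0 and 52.7 CPM at 24 h against 41.0, 44.4, 37.9 and 33.3 CPM at 6 h. Unmated bursa lay between them, at 46.6, 49.9, 45.1 and 42.9 CPM. The log2FC was 0.44 (SE 0.12, edgeR BH-adjusted p = 0.033), in a comparison in which 5.22% of all genes were higher by that rule. No subunit passed BH once any 1 of the 24 h libraries, or 6 h library 3 or 4, was left out. For 6 h against unmated, leaving out 6 h library 1, of run 1, let 8 of 32 subunits pass BH, beside 35.2% of all genes. Leaving out 1 library at a time, the bursa median ran from 0.23 to 0.39 at 6 h and from 0.18 to 0.33 at 24 h.

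In the oviduct the 24 h median was 0.26 with 31 of 32 positive (all genes 0.02), and at 6 h it was 0.08 with 22 positive (all genes -0.04). Rpn6, the lid subunit that clamps the lid to the core (2R:14750166-14752910, - strand), had the largest 6 h value. It stood at 72.6 and 110.5 CPM at 6 h, against 66.5, 60.7 and 60.4 CPM in unmated oviduct, with both 6 h libraries above all 3 unmated ones (log2FC 0.58, SE 0.24, edgeR unadjusted p = 0.040). Rpn1 stood at 34.3 and 27.8 CPM at 6 h, against 55.9, 43.7 and 43.3 CPM in unmated oviduct, with no overlap (log2FC -0.60, SE 0.25, edgeR unadjusted p = 0.047). Both 6 h oviduct libraries were from run 2 and 1 unmated library was from run 1. With run 2 alone, 14 subunits passed BH at 6 h and 21 at 24 h, with medians of 0.25 and 0.44, but 48.3% and 31.1% of all genes passed in those fits, which rest on 2 libraries a group. Leaving out 24 h library 1, of run 1, let 8 of 32 subunits pass BH at 24 h, beside 19.9% of all genes. Leaving out 1 library at a time, the median ran from -0.0030 with 16 positive to 0.25 at 6 h and from 0.19 to 0.35 at 24 h.

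In the seminal receptacle the median was 0.16 at 6 h with 26 positive (all genes 0.03) and 0.23 at 24 h with all 32 positive (all genes 0.01). The 24 h count rested on the libraries used: 25 were positive with a median of 0.14 without 24 h library 1, and 23 with a median of 0.07 in run 2 alone, while without unmated library 2 the median was 0.37. Prosalpha4 had the largest 6 h value, with 36.5, 57.4, 87.6 and 83.6 CPM at 6 h against 36.5, 66.3 and 42.1 CPM in unmated libraries (log2FC 0.48, SE 0.34). Prosbeta6, a noncatalytic beta subunit, had the lowest, with 29.8, 42.5, 32.2 and 32.1 CPM at 6 h against 35.9, 39.0 and 36.7 CPM in unmated libraries (log2FC -0.10, SE 0.20). Both pairs of groups overlapped.

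In the glandular tissues no subunit passed BH, and the medians were small. In spermathecae the medians were 0.02 at 6 h with 20 positive and 0.01 at 24 h with 18 positive, beside 0.04 for all genes at both times. In parovaria they were 0.13 with 26 positive and 0.13 with 30 positive, beside -0.01 and 0.06. These medians turned with single libraries. Without 24 h library 2, 5 subunits were positive in spermathecae with a median of -0.17, against 29 and 0.09 without 24 h library 4. In parovaria 16 were positive at 24 h with a median of -0.0011 without 24 h library 2, and up to 31 without other libraries. At 6 h the medians ran from -0.02 to 0.11 in spermathecae and from -0.01 to 0.18 in parovaria. Rpn6 lay in the opposite direction to the oviduct in spermathecae. It stood at 102.6, 115.7, 109.6 and 112.5 CPM in unmated spermathecae, 67.7, 68.0, 94.9 and 82.2 CPM at 6 h and 95.3, 56.0, 84.9 and 80.1 CPM at 24 h, with neither postmating time overlapping unmated. The log2FC was -0.48 at 6 h (SE 0.20, edgeR unadjusted p = 0.036) and -0.46 at 24 h (edgeR unadjusted p = 0.044).

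Prosalpha5 had the largest 6 h value in spermathecae, with 48.1, 75.9, 93.9 and 84.3 CPM at 6 h against 59.5, 64.6, 60.7 and 54.6 CPM in unmated libraries (log2FC 0.36, SE 0.23). In parovaria, Prosbeta5 stood at 167.6, 129.2 and 144 CPM at 6 h, against 118, 84.1, 129.7 and 122.4 CPM in unmated libraries (log2FC 0.31, SE 0.24). Rpn2 stood at 61.7, 44.6 and 46.5 CPM at 6 h, against 59.6, 65.9, 52.6 and 55.9 CPM in unmated parovaria (log2FC -0.26, SE 0.20). Each of these 3 pairs overlapped.

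The direction of these medians depended on scaling in part. With library size alone in place of TMM, the median over all bursa genes moved to -0.23 at 6 h and -0.40 at 24 h, and that of the 32 subunits to 0.01 and -0.13, so that the subunits remained above genes in general but not above unmated at 24 h. Oviduct medians turned to -0.23 at 6 h and -0.08 at 24 h, and the parovaria median to -0.01 at 24 h.

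The fat body had the largest shift, at 24 h. Against unmated, 31 of 32 subunits were positive with a median log2FC of 0.64, beside -0.01 for all genes, and 18 reached an unadjusted p under 0.05, beside 14.1% of all genes. Against 6 h, all 32 were positive with a median of 0.84, beside -0.04, and 21 reached an unadjusted p under 0.05, beside 16.7%. With edgeR fitted to the fat body alone, no subunit passed Bonferroni or BH in either comparison, nor did any other of the 5677 genes. This depended on the fit. One edgeR fit of all libraries passed 11 of 32 subunits by BH at 24 h against unmated, beside 6.47% of 8793 genes, and 16 at 24 h against 6 h, beside 10.6%. DESeq2 passed 5 and 4 by BH, beside 3.56% and 3.06% of genes. The summed level was 2647 to 3493 CPM in unmated fat body, 1939 to 3230 CPM at 6 h and 4525 and 4925 CPM at 24 h, so the 24 h libraries lay above all others. As a plain share of reads the order was the same, at 0.117 to 0.145% in unmated fat body, 0.104 to 0.126% at 6 h and 0.159 to 0.163% at 24 h. Fat body markers summed to 72065 to 75121 CPM at 24 h, against 48857 to 106472 CPM in unmated fat body.

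Both 24 h fat body libraries were from run 2. Within run 2 the median at 24 h against unmated was 0.50 with 31 positive, and with run as a covariate it was 0.49. With library size alone it was 0.15 with 20 positive, beside a median of -0.54 over all genes. Leaving out 1 library at a time gave 0.60 to 0.70. Core and cap were both positive, with medians of 0.79 and 0.60 against unmated and 0.91 and 0.73 against 6 h. Rpn13, a ubiquitin receptor, was the 1 subunit below unmated (-0.13).

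Prosbeta5 in fat body stood at 302.5, 228.7, 584 and 412 CPM in unmated libraries, 192.7, 479.5 and 552.1 CPM at 6 h and 758.6 and 681 CPM at 24 h. Both 24 h libraries lay above the other 7, but the log2FC of 0.99 had an SE of 0.45. Prosbeta1 stood at 93.9, 86.6, 95.6 and 103 CPM in unmated libraries, 53.0, 81.7 and 87.3 CPM at 6 h and 161 and 119 CPM at 24 h. Its log2FC at 24 h was 0.65 (SE 0.24, edgeR unadjusted p = 0.023). Prosbeta2 overlapped, with 50.1, 57.4, 36.7 and 60.6 CPM in unmated libraries, 50.5, 55.7 and 49.3 CPM at 6 h and 57.5 and 61.3 CPM at 24 h. The catalytic subunits thus did not move by the same amount.

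Rpt1, a base ATPase (2R:7652440-7653954, - strand), had the lowest 6 h value in fat body. It stood at 139.4, 135.9, 141 and 158.6 CPM in unmated libraries, 85.6, 101.7 and 106 CPM at 6 h and 187.6 and 184.7 CPM at 24 h. The 3 times did not overlap, with a log2FC of -0.50 at 6 h (SE 0.19, edgeR unadjusted p = 0.021) and of 0.97 at 24 h against 6 h (edgeR unadjusted p = 0.0012).

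Prosbeta3 and the ubiquitin receptor Rpn10 are named here after their values were seen. Prosbeta3 stood at 21.6, 20.1, 29.5 and 22.1 CPM in unmated fat body, 23.2, 40.5 and 48.4 CPM at 6 h and 69.4 and 57.6 CPM at 24 h. It had a log2FC of 1.53 at 24 h (SE 0.29, edgeR unadjusted p = 0.00041), and Rpn10 one of 0.72 (edgeR unadjusted p = 0.0042).

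Rpn5 was the subunit that stood apart at 6 h in the fat body. It is a scaffold subunit of the lid. It stood at 12.4, 18.6, 15.0 and 11.4 CPM in unmated fat body, 34.0, 30.9 and 37.0 CPM at 6 h and 44.4 and 38.9 CPM at 24 h. Every postmating library lay above every unmated one, in both runs at 6 h. The log2FC was 1.30 at 6 h (SE 0.22, edgeR unadjusted p = 0.00014, BH-adjusted p = 0.026, Bonferroni-adjusted p = 0.79). It rose by BH, a rule by which 1.57% of all genes were higher at 6 h, and was not called by Bonferroni. Leaving out 1 library at a time kept the log2FC between 1.21 and 1.44, but no subunit passed BH without 6 h library 3 or without unmated library 1, 3 or 4. At 24 h the log2FC was 1.63 (SE 0.24, edgeR BH-adjusted p = 0.069), and the change between 6 h and 24 h was 0.33. DESeq2 gave Bonferroni-adjusted p-values of 8.5e-04 at 6 h and 1.84e-05 at 24 h. Within run 2 the values were 1.34 and 1.68, and with library size alone 1.15 and 1.10.

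In the other tissues Rpn5 had 6 h values of -0.25 in bursa, -0.14 in oviduct, -0.01 in seminal receptacle, 0.11 in spermathecae and -0.20 in parovaria. The test of a 6 h response that differed among the 6 tissues called 1 of the 32 subunits, Rpn5 (edgeR Bonferroni-adjusted p = 4.39e-05), beside 1.80% of the 5388 genes tested. With library size alone it was not called (Bonferroni-adjusted p = 1), and over the other settings that adjusted p was 8.4e-07 to 5.8e-04. Group means of Rpn5 in the FRT were 36.6 to 78.8 CPM, so the unmated fat body was the low group and the postmating fat body was near the lower FRT values. Muscle markers stayed at 90.3 to 166 CPM in fat body libraries of all 3 times. These markers are abundant in the epithelial tissues and far less so in the glandular ones. The cause of the Rpn5 difference was not tested.

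**Figure D3:**
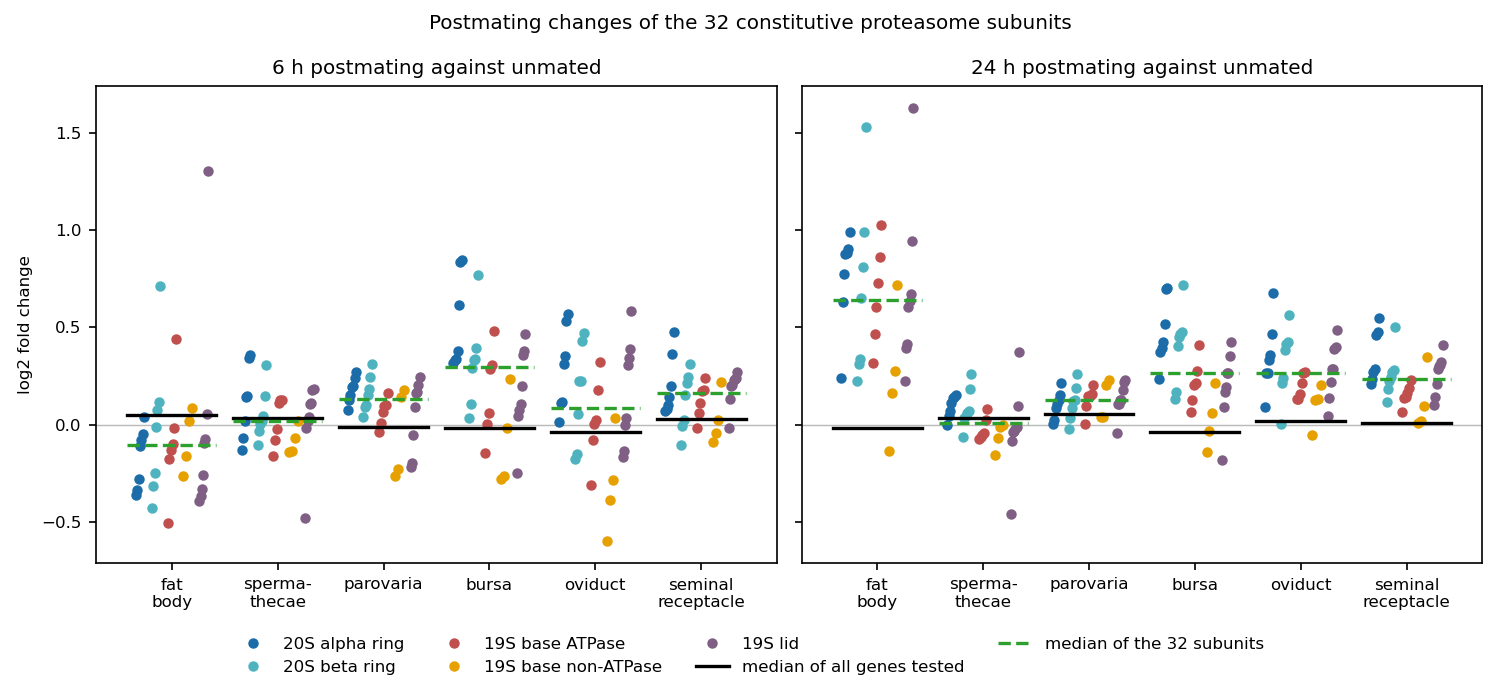
log2FC against unmated of the 32 constitutive subunits in each tissue at 6 h and 24 h (1 dot per subunit, coloured by role; green dashed lines are the medians of the 32, black lines the medians of all tested genes). The fat body has a median of 0.64 at 24 h, beside -0.01 for all genes, and Rpn5 stands apart there at 1.30 at 6 h.

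No subunit was called for a 6 h response that differed between glandular and epithelial tissues (edgeR, 0 of 32, beside 1.21% of 5388 genes), where the 95% interval of the difference typically reached 0.37 to either side. Rpn6 alone reached an unadjusted p under 0.05, 1 of the 32 subunits, beside 15.4% of all genes. Its glandular minus epithelial difference was -0.54 (edgeR unadjusted p = 0.035). The median difference was 0.01, beside 0.04 for all genes.

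Sequencing run and transcript length moved with several of these values. In all 16 groups that held both runs, Rpn1, one of the longest subunit transcripts, was lower in run 2 than in run 1, by 0.04 to 0.85 on the log2 scale. Prosbeta5 was higher in run 2 in 12 of these groups, by up to 1.41 in the 6 h fat body, and lower in 4, at -0.30 in the 6 h parovaria. Over the 32 subunits, the 6 h change in bursa fell with exon length (Spearman rho = -0.66), and so it did over all 7922 genes with a length (rho = -0.50). At 24 h rho was -0.68 over the subunits and -0.50 over all genes. These correlations run over genes measured in the same libraries and are a description.

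Within run 2 the bursa median at 6 h was 0.35 with 24 positive, and within run 1 it was 0.18 with 27 positive. Prosalpha5 had 1.18 in run 2 and 0.24 in run 1, Prosbeta5 1.12 and 0.18, and Rpn1 -0.71 and 0.04. The test of a run by 6 h difference passed 0 of 32 subunits by BH in bursa, where 0% of all genes passed, and 2 subunits had an unadjusted p under 0.05 in edgeR, beside 23.2% of all genes. For Rpn1 the edgeR unadjusted p was 0.0042, with a BH-adjusted p of 0.10. In spermathecae it passed 0 of 32, beside 0.0393% of all genes, with 0 at an unadjusted p under 0.05 (15.1% of all genes), and the medians were 0.04 in run 2 and 0.03 in run 1. DESeq2 was not run on these differences. With run as a covariate, the bursa medians were 0.29 at 6 h with 27 positive and 0.27 at 24 h with 29 positive. In that edgeR fit 3 of 32 subunits passed BH at 6 h, beside 39.6% of all genes. At 24 h 0 passed, beside 1.68%. The part of run and length in the bursa medians was not tested further.

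**Figure D4:**
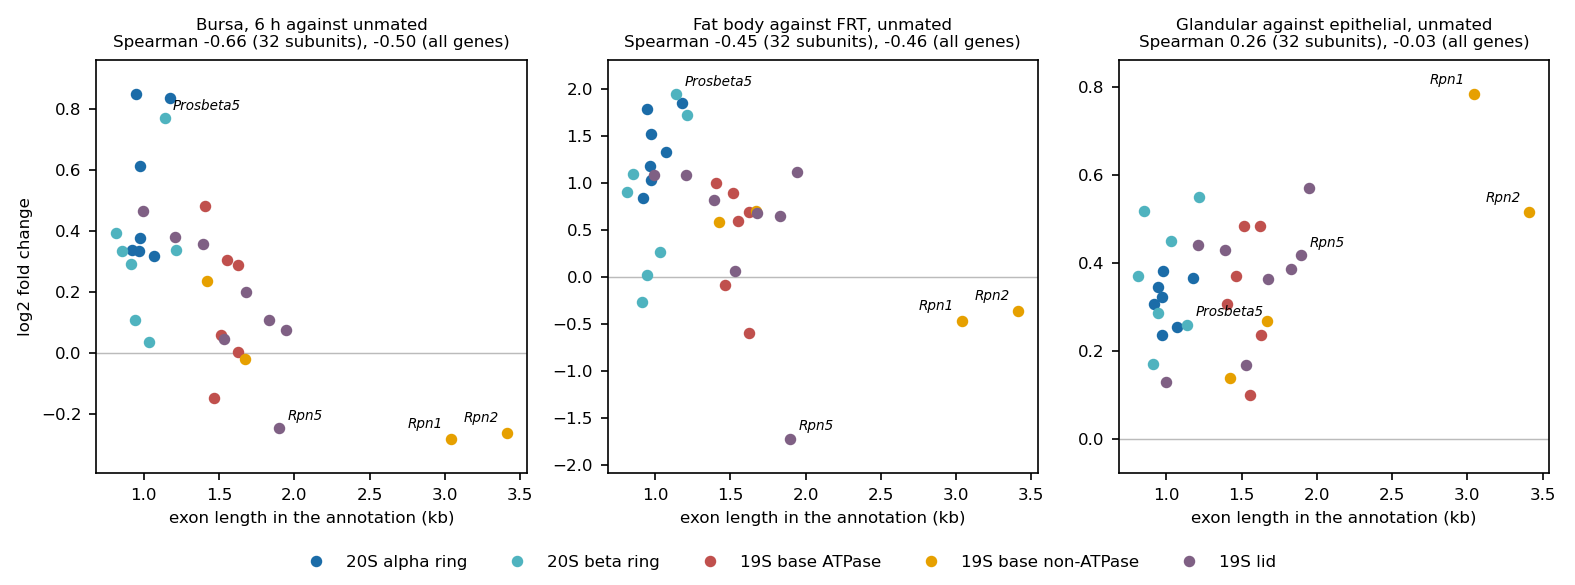
log2FC of each constitutive subunit against its exon length in kb, in 3 comparisons, with 1 point per subunit. Short core subunits lie higher and the long base scaffolds Rpn1 and Rpn2 lower at 6 h in bursa (rho = -0.66) and in fat body against FRT (rho = -0.45), and not in glandular against epithelial tissues (rho = 0.26).

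Between unmated tissues, the study contrasted glandular with epithelial tissues. All 32 subunits were higher in glandular tissues, with a median log2FC of 0.36, beside -0.01 for all 8545 genes. Bonferroni called 2, beside 12.1% of all genes called higher, and BH passed 25, beside 33.3%. The share called by Bonferroni was below the background and that by BH above it. Role medians were alike, from 0.32 to 0.40.

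Rpn1 had the largest difference. It stood at 103, 106, 94.2 and 78.1 CPM in unmated spermathecae and 84.7, 84.4, 74.3 and 77.0 CPM in parovaria, against 49.9, 55.5, 51.8 and 50.8 CPM in bursa, 55.9, 43.7 and 43.3 CPM in oviduct and 62.2, 50.7 and 59.5 CPM in seminal receptacle. All glandular libraries were above all epithelial ones (log2FC 0.78, SE 0.11, edgeR Bonferroni-adjusted p = 0.0034). Rpt1 was the other call, with 94.2 to 125 CPM in spermathecae and 83.7 to 101 CPM in parovaria, against 81.2 to 95.2 CPM in bursa, 57.3 to 64.8 CPM in oviduct and 68.0 to 83.9 CPM in seminal receptacle. The bursa overlapped the glandular tissues (log2FC 0.48, SE 0.07, edgeR Bonferroni-adjusted p = 0.0050), and with library size alone the log2FC was -0.22. Prosbeta1 (0.52) and Prosbeta2 (0.45) passed BH, and Prosbeta5 did not (0.26, edgeR BH-adjusted p = 0.13).

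Rpt3, a base ATPase (X:11125101-11126785, + strand), had the smallest difference. It stood at 54.2 to 70.1 CPM in spermathecae and 48.0 to 58.9 CPM in parovaria, against 62.3 to 71.6 CPM in bursa, 40.0 to 47.3 CPM in oviduct and 48.2 to 60.8 CPM in seminal receptacle (log2FC 0.10, SE 0.07). With library size alone the glandular minus epithelial median was -0.34 with 1 positive, beside -0.71 for all genes, so the sign turned while the subunits stayed above genes in general. Leaving out 1 library at a time left 0 to 2 Bonferroni calls, and run 2 alone gave a median of 0.33 with 0 Bonferroni calls.

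The fat body differed from the FRT in most subunits. At Bonferroni, 20 of 32 were higher in unmated fat body, beside 26.6% of all genes, and 1 was lower, beside 26.2%. By BH, 24 were higher, beside 36.8%, and 5 lower, beside 47.8%. The median log2FC was 0.83, beside -0.43 for all genes. The alpha ring was the most uniform group, with 7 of 7 called higher and a median of 1.33. Of the beta ring 4 of 7 were called (median 0.91), of the ATPases 3 of 6 (0.64), of the lid 6 of 8 including Rpn5 (0.75) and of the other base subunits 1 of 4 (0.12). The 20S median was 1.14 and the 19S median 0.67.

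Prosbeta5 led, with 302.5, 228.7, 584 and 412 CPM in unmated fat body, against 116 to 126 CPM in spermathecae, 84.1 to 129.7 CPM in parovaria, 105.3 to 165 CPM in bursa, 77.2 to 93.9 CPM in oviduct and 71.5 to 123 CPM in seminal receptacle. All 4 fat body libraries were above all 18 FRT libraries (log2FC 1.95, SE 0.15, edgeR Bonferroni-adjusted p = 5.2e-07). Prosalpha4 (1.86), Prosalpha5 (1.79), Prosbeta7 (1.72) and Prosalpha7 (1.52) followed. Prosbeta1 stood at 86.6 to 103 CPM in fat body, against 28.1 to 68.8 CPM over the FRT libraries (log2FC 1.10, SE 0.11, edgeR Bonferroni-adjusted p = 2.4e-05). Prosbeta2 overlapped the FRT, at 36.7 to 60.6 CPM in fat body against 34.9 to 58.8 CPM, and had a log2FC of 0.26 (edgeR BH-adjusted p = 0.018), and Prosbeta6 one of 0.02. Lid subunits among the calls included Rpn6 (1.12), the deubiquitinase Rpn11 (1.09) and Rpn12 (1.09).

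Rpn5 was the subunit called lower, with 11.4 to 18.6 CPM in unmated fat body against FRT group means of 36.6 to 78.8 CPM (log2FC -1.72, SE 0.14, edgeR Bonferroni-adjusted p = 5.6e-07). In bursa, for example, it stood at 42.9 to 49.9 CPM. Rpn1 stood at 46.1, 55.6, 29.5 and 40.2 CPM in fat body (log2FC -0.46) and Rpn2 at 38.9, 47.5, 22.9 and 36.6 CPM (log2FC -0.36), both lower by BH only. With library size alone, the median over all genes was -1.94 and that of the 32 subunits -0.71 with 4 positive, and 9 were called, beside 58.2% of all genes, so the sign of most subunits turned with scaling while Rpn5 was lower under every scaling. Run 2 alone gave 12 calls, beside 27.2% of genes, and in run 1 alone Rpn5 was at -1.69 and was not called (edgeR Bonferroni-adjusted p = 0.37). Leaving out unmated fat body library 3 left 12 calls, beside 49.2% of genes, and leaving out library 4 left 11, beside 46.8%, against 21 with all. Fat body against FRT also fell with exon length, with rho = -0.45 over the subunits and -0.46 over all genes.

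**Figure D5:**
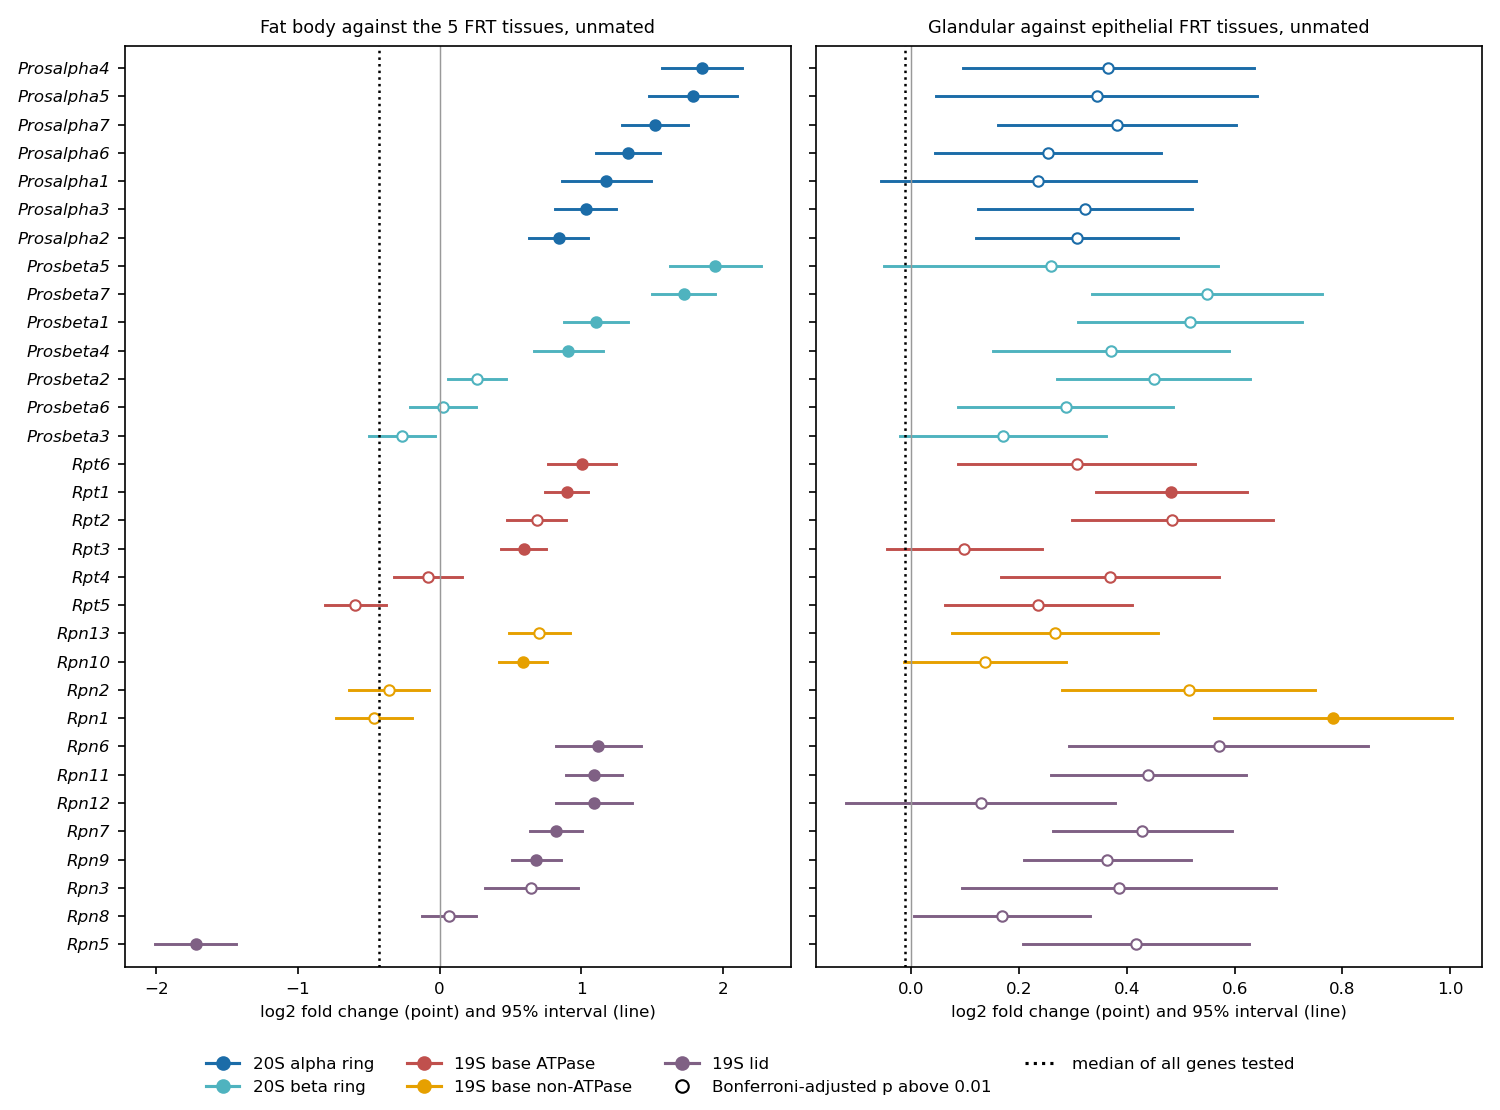
log2FC and 95% interval of each constitutive subunit for fat body against FRT (left) and glandular against epithelial tissues (right), all unmated (filled points have a Bonferroni-adjusted p of at most 0.01; dotted lines are the medians of all genes). Fat body values run from -1.72 for Rpn5 to 1.95 for Prosbeta5, and glandular values from 0.10 to 0.78.

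Against the whole female, most subunits were lower in the FRT. The study's rule for a tissue-biased gene was a Bonferroni-adjusted p of at most 0.001 with a log2FC of at least 2, that is, higher in the tissue. No subunit met it in any of the 6 tissues, and none met the Bonferroni rule of 0.01 in either direction (edgeR). The shares of all genes called at 0.01 were 9.70% in fat body, 4.12% in spermathecae, 6.11% in parovaria, 7.96% in bursa, 0.409% in oviduct and 2.24% in seminal receptacle. Unadjusted p-values under 0.05 numbered 9, 26, 27, 28, 27 and 27 of 32 in that order, beside 75.2%, 71.4%, 75.7%, 75.8%, 68.9% and 70.3% of all genes. DESeq2 called 2, 10, 14, 11, 21 and 9 by Bonferroni, beside 38.6%, 37.6%, 45.1%, 46.4%, 37.7% and 38.4%.

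By BH, 27 of 32 subunits were lower in bursa (39.1% of all genes), 27 in oviduct (34.5%), 27 in seminal receptacle (35.4%), 25 in spermathecae (37.5%) and 26 in parovaria (40.7%), but 8 in fat body (43.6%). Only Rpn6 was higher by BH, in spermathecae (0.63, beside 31.1% of genes higher) and in fat body (1.30, beside 29.7%). Median log2FC was -0.90 in spermathecae, -1.15 in parovaria, -1.13 in bursa, -1.68 in oviduct and -1.39 in seminal receptacle, beside -0.15, -0.20, -0.15, -0.17 and -0.09 for all genes. In fat body it was -0.32, beside -0.53.

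Prosalpha4 was the lowest in each FRT tissue, with a log2FC of -1.89 in spermathecae, -1.76 in parovaria, -1.69 in bursa, -2.50 in oviduct and -2.39 in seminal receptacle. In fat body the lowest was Rpn2 (-1.91), followed by Rpn8 (-1.45) and Rpn5 (-1.30), and the core lay near the whole female (20S median -0.03, 19S median -0.60). The 2 whole female libraries differed, with 212.6 and 466 CPM for Prosbeta5 and 57.1 and 23.8 CPM for Rpn5. Without whole female library 1 the fat body median was -1.12, and without library 2 it was -0.82, against -0.32 with both. Either way 1 whole female library was left, so no gene could pass the filter through that group. These fits tested 5506 genes, against 8241 with both libraries. The median over all genes was -0.08 without library 1 and -0.09 without library 2, against -0.53 with both. The whole female also held the ovary: 8 matched germline markers summed to 956 to 1686 CPM in the whole female, against at most 160 CPM in any dissected tissue, and 12 eggshell markers to 8978 to 15353 CPM, against at most 741 CPM, in a 6 h oviduct library. The part of the ovary in these differences was not tested.

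A list of 31 partners of the proteasome (assembly factors, activators, ubiquitin genes, shuttles and cofactors) was examined beside the subunits, of which Pa200, Ecm29 and TER94 are not analysed here. Partner medians after mating were -0.05 to 0.21 over the 18 comparisons, and in these comparisons partners passed BH in bursa only. REG, the proteasome activator PA28gamma, was higher in bursa at 6 h (1.06, edgeR BH-adjusted p = 0.0027) and lower at 24 h than at 6 h (-0.91, BH-adjusted p = 0.011), and cnc, an NF-E2-type transcription factor, was lower at 6 h (-1.83, BH-adjusted p = 0.041). The 2 of 28 at 6 h and 1 of 28 at 24 h over 6 h stood beside 25.4% and 14.0% of all genes. The 6 h response differed among the 6 tissues by BH for REG, PI31 and Rad23, beside 13.8% of genes. Their edgeR BH-adjusted p-values were 0.0026, 0.029 and 0.045. REG also passed for a glandular minus epithelial difference (-0.70, edgeR BH-adjusted p = 0.0044), beside 5.53% of genes. Its 6 h log2FC was 0.81 in oviduct, 0.14 in parovaria and -0.29 in spermathecae.

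Between unmated tissues, 5 of 28 tested partners were called higher in glandular than epithelial tissues by Bonferroni, beside 12.1% of all genes: the ubiquitin fusion genes RpS27A (0.88) and RpL40 (0.91), the ubiquitin ligase components sip3 (1.80) and Hrd3 (1.38) of endoplasmic reticulum degradation, and the N-glycanase Pngl (0.93). The partner median there was 0.37, near the 0.36 of the subunits. In fat body against FRT 7 of 28 were called higher, beside 26.6%, among them the core maturation chaperone Pomp (1.04), REG (1.05), RpS27A (2.51), RpL40 (1.55) and the cofactor p47 (2.26), and the shuttle Rad23 was called lower (-2.46). By BH, 12 partners were higher, beside 36.8%, and 13 lower, beside 47.8%, with a median of -0.06.

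Over the means of the 19 groups, the subunits followed one another. The Pearson correlation of each gene's mean log2(CPM + 0.5) with the mean over the 32 had a median of 0.93 among subunits, to whose mean they contribute, and of -0.05 over all 9545 genes, and 21 of the 32 were among the 100 highest. Prosalpha3 was the highest at 0.98. The least alike were Rpn5 (-0.28), Rpt5 (-0.07) and Rpn1 (0.26). The genes most alike that are not subunits were CG33722 (0.94), CG3437, Prp38, Pex13 and Prp31 (0.92 each), and CG5554, Fbxl4, por, the gene with identifier FBgn0261014 and Elp4 (0.91 each). The groups share libraries, scaling and depth, and without the whole female the median among subunits was 0.92. The other genes depended on it: 1 of these 10, CG33722, was still among the 10 most alike without it.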

How the data were processed

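Female tissues were sequenced as 50 bp single-end reads, and the authors mapped them with hisat 2.1.0 to the FlyBase Release 6 genome and counted reads per gene with StringTie. The deposited table was named for CPM but held whole-number counts per gene, so counts were tested as deposited. Of its columns, 14 showed a group but no single sample, and they served as unnumbered replicates. Symbols, lengths and coordinates came from the BDGP6.54 annotation of the same Release 6 assembly, which held 17624 of the 17752 identifiers.

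Counts were scaled by TMM and tested with edgeR 4.0.16 (limma 3.58.1, R 4.3.3), with no covariate. Changes after mating were tested within each tissue, and contrasts between tissues over their libraries together. Genes were kept if 2 or more libraries of any group passed 2 CPM. The 6 h tests across tissues kept a narrower set of 5388 genes, against 5677 in fat body alone. SEs were derived from the quasi-likelihood F statistic. DESeq2 1.42.0, other scalings, no filter, 1 run alone, a run covariate and single libraries left out were alternatives. The test was checked on simulated data. Tables and plots were made in Python 3.11.15 with pandas 2.3.3 and matplotlib 3.10.9. Floors cover counting error only.

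The members and gene lists, including fat body, muscle, germline, eggshell, testis and male accessory gland markers, were chosen with earlier results of these data known. Values per library were given for the subunits with the largest and smallest 6 h change in each tissue, the catalytic subunits, the extremes of the tissue contrasts and of the level per kb, and variant paralogs above 2 CPM.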

Additional observations from a re-analysis of the deposited data

Results flagged for a closer look

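Among groups of 4 libraries, 140 sets of values were examined for a library far from the other 3, and 10 had one, where chance gives about 1 in 20. In the 24 h spermathecae, the summed level of the 32 constitutive subunits was 2770 CPM in library 2, of run 1, against 1697 to 1888 CPM in the others. Among single genes, 1 run 1 library of this group was high in Rpt1, Rpt3, Prosbeta2 and the paralog Prosalpha1R. It held 158.9 CPM of Rpt1 against 88.0 to 98.7 CPM in the others, 84.2 CPM of Rpt3 against 48.0 to 51.3, 80.6 CPM of Prosbeta2 against 47.4 to 53.1, and 36.8 CPM of Prosalpha1R against 21.6 to 24.1. In the 6 h spermathecae, Rpt3 had 1 library at 82.7 CPM against 58.0 to 61.3 CPM, and Prosalpha1R 1 library at 19.3 CPM against 30.5 to 31.6 CPM. In the 6 h seminal receptacle, 1 library was low in Rpt1, at 64.6 CPM against 83.3 to 86.6 CPM, and 1 in Rpt3, at 49.8 CPM against 63.8 to 65.9 CPM. Prosbeta6 had 1 library at 61.2 CPM in the 24 h parovaria against 36.1 to 38.5 CPM, and Rpn5 1 library at 56.0 CPM in the 24 h bursa against 52.7 to 52.9 CPM, a gap that is small in size.

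The 6 h response of Rpn5 differed between tissues (edgeR Bonferroni-adjusted p = 4.39e-05), with a log2FC of 1.30 in fat body and of -0.25 to 0.11 in the 5 FRT tissues. All 3 of the 6 h fat body libraries lay above all 4 unmated ones.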

How the results depend on the processing

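Over 28 comparisons, the count of subunits called was within 1.5 times the main count in 368 of 430 repeats under another setting and moved in 62. Of the 368, 334 were a count of 0 that stayed at 0, which says nothing of stability. By BH in place of Bonferroni, the counts were 1 in bursa at 24 h against 6 h, 1 in fat body at 6 h, 25 in glandular against epithelial tissues, and, against the whole female, 9 in fat body, 26 in spermathecae, 26 in parovaria and 27 each in bursa, oviduct and seminal receptacle. DESeq2 gave 1 in fat body at 6 h and 1 at 24 h, and 2, 10, 14, 11, 21 and 9 against the whole female in fat body, spermathecae, parovaria, bursa, oviduct and seminal receptacle. One fit of all libraries gave 1 and 2 in fat body at 6 h and 24 h, beside 65 and 27 of 8793 genes. One fit of all unmated libraries gave 3, 7, 10, 9, 17 and 16 against the whole female in the same order. All genes called there numbered 3290, 2082, 2412, 2692, 2230 and 2416 of 9392. Library size alone gave 4, 3, 8 and 2 against the whole female in fat body, spermathecae, parovaria and bursa. All genes called there were 463 of 8241, 620 of 8554, 1165 of 8540 and 682 of 8916. That scaling gave 0 in glandular against epithelial tissues, beside 2674 of 8545 genes, and 9 in fat body against FRT, beside 4974. For a 6 h response that differed among tissues it gave 0, beside 22 of 5388. The 2 glandular calls were 1 with RLE scaling, beside 2309 of 8545 genes. They were 0 without a filter, beside 2225 of 14440, and 0 in run 2 alone, beside 954 of 8317. Fat body against FRT gave 12 in run 2 alone, beside 2260 of 8317. Run 1 alone, added after seeing the data, gave 0 and 1. Leaving out 1 library at a time gave 0 to 2 calls in glandular against epithelial tissues and 11 to 21 in fat body against FRT, and, without whole female library 1, up to 4 in spermathecae and 1 in parovaria against the whole female (lowest 0 in both). The causes were not tested.

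For single subunits, 328 of 380 repeats kept their direction and their side of the threshold, 42 became weaker, 4 stronger and 5 moved, and 1 reversed, Rpt1 in glandular against epithelial tissues, at -0.22 with library size alone. Sizes moved more, as in Prosalpha5 in bursa at 6 h, at 0.30 in run 1 alone and 0.36 with library size alone, against 0.85. The labels tied same-numbered libraries by the number alone. Correlations of their deviations from the group mean had medians of 0.27 in bursa (lowest 0.006) and 0.20 in spermathecae. They were -0.04 in parovaria (lowest -0.196) and -0.10 in oviduct. Pairs of other numbers within a run had medians of 0.20, 0.13, 0.23 and -0.01 in that order. With deviations taken within group and run, same-numbered medians were 0.12, 0.12, -0.22 and -0.07. A replicate block left 0 Bonferroni calls in bursa, spermathecae, oviduct and parovaria. With it, 4 of 32 subunits passed BH in bursa at 6 h, beside 41.6% of all genes, against 0 and 25.4% without it. Depth limits the variant paralogs, and group sizes of 2 to 4 limit single subunits.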
